A study of Mus musculus with 12 samples.

Results

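Penk, S100a6, Ncam1, Rasgrp2, Hmcn2, Afap1l1 and Wscd1 are 7 of the 54532 genes counted in sorted cells of newborn mouse testis, and they were selected on their difference between dexamethasone and saline in somatic cells, read against the same difference in germ cells. Because those values chose the genes, every dexamethasone difference of these 7 genes given here is a description and carries no test. The question behind the comparison was which cells of the testis change their transcripts when the glucocorticoid receptor is activated.

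RNA-seq was carried out on 12 libraries, 3 in each of 4 groups. All mice carried the Tg(Pou5f1-EGFP)2Mnn transgene, which marks germ cells with green fluorescent protein (GFP) under control of Pou5f1, the gene for the pluripotency factor OCT4, and the GFP-positive (germ) and GFP-negative (somatic) fractions of male gonads were sorted from each treatment. Pregnant dams received 10 µg of dexamethasone (dex) per g of body weight at E17.5 and E18.5 of gestation, the pups received the same dose at postnatal day 0, and testes were taken at postnatal day 1. The saline groups received the vehicle on the same schedule. By the study's methods each replicate pooled testes of more than one litter, so a library is not a single animal, and the GFP-negative fraction holds all cells of the testis without the reporter.

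Dexamethasone is a synthetic agonist of the glucocorticoid receptor, a transcription factor that enters the nucleus once it has bound its ligand and acts on target genes at response elements or through other factors. In the newborn testis the germ cells are prospermatogonia enclosed in cords of Sertoli cells, and the tissue around the cords holds Leydig cells, peritubular and stromal cells, vessels and macrophages. The 7 genes have unlike roles. Penk encodes proenkephalin, the precursor of the enkephalin opioid peptides. S100a6 encodes a small calcium-binding protein, Ncam1 a cell adhesion molecule of the immunoglobulin superfamily, Rasgrp2 a nucleotide exchange factor that loads the small GTPase RAP1, and Hmcn2 the large extracellular matrix protein hemicentin 2. Afap1l1 encodes an actin filament associated adaptor protein and Wscd1 a Golgi-resident sulfotransferase that acts on sialic acid.

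Depth ranged from 18459692 to 25178477 counts per library, and libraries of 1 group correlated at 0.993 to 0.995. The labels held against the markers of the sort. The summed level of 6 germ cell markers was 2270 to 2560 CPM (counts scaled to the size of the library) in germ libraries and 7.3 to 8.27 CPM in somatic libraries. The summed level of 6 Sertoli cell markers was 2650 to 3070 CPM in somatic and 25.3 to 45.5 CPM in germ libraries. Dexamethasone passed the test for 655 of 16766 genes in somatic cells (459 higher and 196 lower) and for 231 of 18550 genes in germ cells, where a call is a Benjamini-Hochberg adjusted p of at most 0.05 in edgeR's quasi-likelihood test.

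The sequences just upstream of the start sites are shown because the receptor that dexamethasone activates is a DNA-binding factor and these genes were chosen for moving with it. RefSeq promoter entries (GRCm38.p6) were matched for 4 of the 7 genes, S100a6, Hmcn2, Rasgrp2 and Wscd1, and the 250 bases before 1 start site of each are printed 5′ to 3′ on the strand of the gene. Capitals mark a glucocorticoid receptor half-site, AGAACA or its reverse complement TGTTCT, or a palindromic core, ACANNNTGT, which reads the same on both strands. No entry was matched for Penk, Ncam1 and Afap1l1.
S100a6, chr3:90612644-90612893, plus strand: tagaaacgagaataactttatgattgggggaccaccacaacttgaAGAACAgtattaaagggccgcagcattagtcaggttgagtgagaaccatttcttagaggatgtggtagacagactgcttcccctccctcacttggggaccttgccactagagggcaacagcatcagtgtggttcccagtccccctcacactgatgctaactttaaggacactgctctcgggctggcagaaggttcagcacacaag
Hmcn2, chr2:31314082-31314331, plus strand: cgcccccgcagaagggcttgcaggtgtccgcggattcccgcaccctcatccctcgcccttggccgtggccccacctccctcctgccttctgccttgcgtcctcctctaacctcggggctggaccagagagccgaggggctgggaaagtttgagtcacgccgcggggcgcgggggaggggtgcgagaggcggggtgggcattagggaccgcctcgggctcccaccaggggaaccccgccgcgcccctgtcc
Rasgrp2, chr19:6399625-6399874, plus strand: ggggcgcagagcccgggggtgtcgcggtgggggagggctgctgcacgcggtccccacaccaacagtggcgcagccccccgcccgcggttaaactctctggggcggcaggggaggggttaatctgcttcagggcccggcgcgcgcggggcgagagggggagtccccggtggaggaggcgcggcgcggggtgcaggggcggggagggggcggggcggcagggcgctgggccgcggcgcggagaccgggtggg
Wscd1, chr11:71750435-71750684, plus strand: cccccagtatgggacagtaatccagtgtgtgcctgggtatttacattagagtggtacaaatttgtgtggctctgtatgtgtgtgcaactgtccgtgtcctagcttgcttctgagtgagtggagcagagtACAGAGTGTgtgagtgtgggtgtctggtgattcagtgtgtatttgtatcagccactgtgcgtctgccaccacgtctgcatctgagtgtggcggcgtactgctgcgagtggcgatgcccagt
The 4 genes have 7 such windows in all, since Wscd1 has 3 start sites and Rasgrp2 has 2. The half-site was in 1 of the 7 windows, that of S100a6, and 16.1% of all 32851 windows of this length held it. The palindromic core was in 2 of the 7 windows, both of Wscd1 and overlapping, so that the letters are the same ones, against 5.84% of all windows. The Hmcn2 and Rasgrp2 windows held neither. A match of letters is a description of the sequence and not a binding site.

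In somatic cells 4 of the 7 genes were higher with dexamethasone (Penk, S100a6, Ncam1 and Rasgrp2) and 3 were lower (Hmcn2, Afap1l1 and Wscd1). For all 7 the dex and saline somatic libraries did not overlap, which was so for 21.5% of all genes tested. The call was passed by 6 of the 7, against 3.91% of genes tested in either direction. Of these, 4 were higher and 2 lower (2.74% and 1.17% of genes tested). The exception was Afap1l1. These counts follow from how the genes were chosen and nothing is read from them. All 7 genes passed the filter on low counts in somatic cells, Wscd1 only through the counts of its saline libraries.

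**Figure D1:**
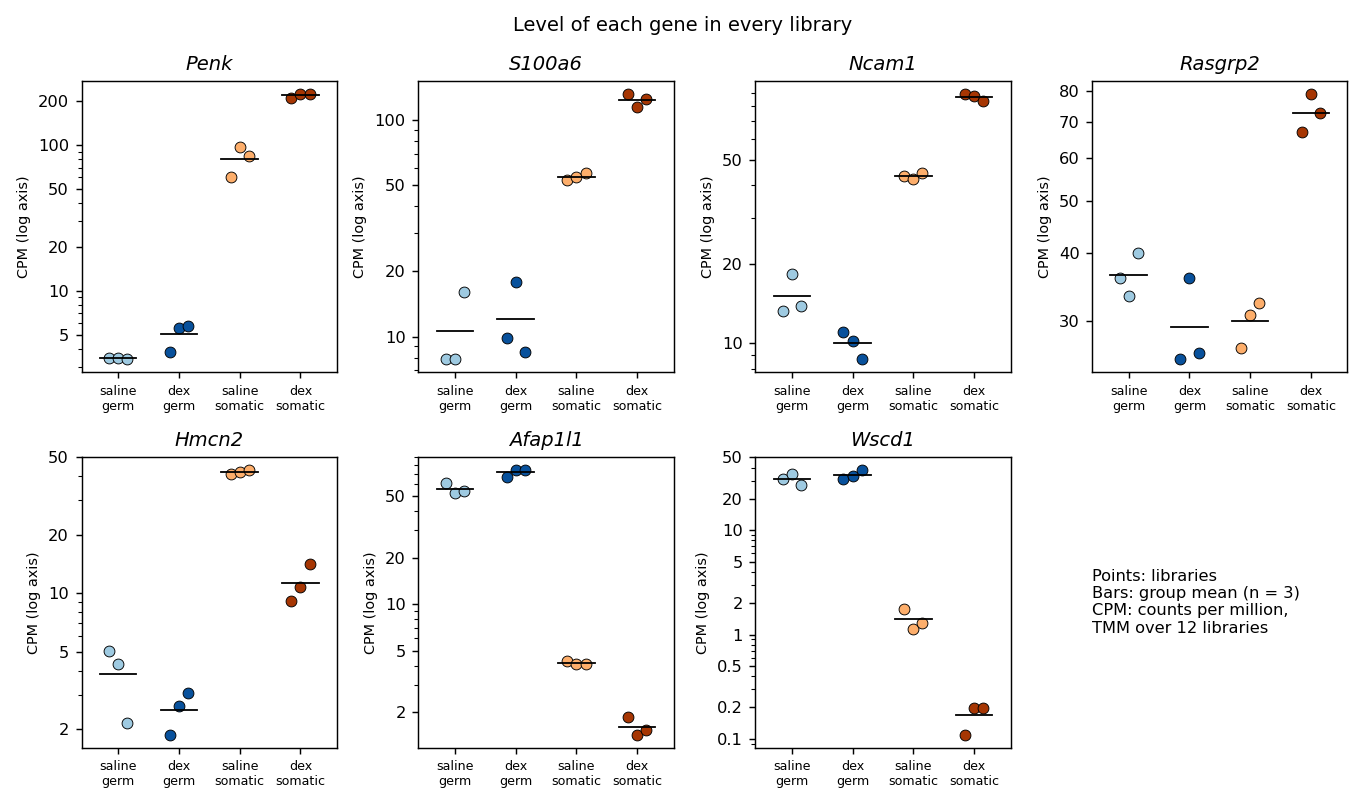
Level of each of the 7 genes in every library, in CPM on a log axis, with 3 points for the replicates of a group and a bar for the group mean. Dex and saline somatic points are apart in every panel, and Afap1l1 and Wscd1 are the 2 genes with germ libraries far above somatic ones.

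Penk (ENSMUSG00000045573, GRCm38 chr4:4133531-4138819, minus strand) had the highest mean of the 7 in somatic cells. Its level was 211, 223 and 223 CPM in the 3 dex somatic libraries and 60.3, 96.3 and 84.7 CPM in the 3 saline somatic libraries. Every dex library was far above the highest saline library. The log2 difference was 1.48 ± 0.12 (SE, edgeR fit, n = 3 against 3), a 2.79-fold higher level. Saline replicate 1 was the lowest library of the 6, and the saline group varied by 22.8% (SD over mean) against 3.1% in the dex group. In germ cells Penk was at 3.81, 5.54 and 5.73 CPM with dex and at 3.43, 3.47 and 3.41 CPM with saline. The dex germ libraries were thus all above the saline germ libraries, at 65 to 146 counts each, with a log2 difference of 0.54 ± 0.24. The germ level was 4.27% of the somatic level with saline and 2.3% with dex, which lay within the ranges of the 6 Sertoli markers. Those ran from 0.707% to 4.74% with saline and from 0.44% to 3.81% with dex. Of the 6 peritubular and stromal markers, Tagln was at 70.8% and 63.2%. The others ran from 0.334% to 2.73% with saline and from 0.244% to 2.08% with dex, all below Penk. The part of somatic RNA in the germ values of Penk was not tested.

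The other genes of opioid signalling did not move as Penk did. Of a list of 17 precursors, receptors and processing enzymes, 11 were tested in somatic cells, 0 were called higher and 1 was called lower. That gene was Pdyn, the precursor of the dynorphin peptides, which fell from 45.9 ± 10.9 to 29.7 ± 5.04 CPM (SD, n = 3 each), a log2 difference of -0.59 ± 0.15 (SE, adjusted p = 0.0472). The median log2 difference of the 11 genes was -0.11, beside -0.0066 over all genes tested. In germ cells Scg5, which encodes a chaperone of the prohormone convertase that processes such precursors, rose from 2.73 ± 0.399 to 5.86 ± 1.19 CPM (log2 1.10 ± 0.25, adjusted p = 0.046). It was the 1 gene called of 14 tested there, and the call held in 5 of 14 alternatives.

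S100a6 (ENSMUSG00000001025, chr3:90612882-90624181, plus strand) stood at 132, 115 and 125 CPM in dex somatic libraries and at 53.1, 54.7 and 57 CPM in saline somatic libraries. The log2 difference was 1.2 ± 0.089, or 2.3-fold. In germ cells its libraries were at 9.87, 17.9 and 8.46 CPM with dex and at 7.89, 7.9 and 16 CPM with saline. The germ groups overlapped, since dex replicate 2 and saline replicate 3 were the highest libraries and the other 4 lay together below them. The germ log2 difference was 0.19 ± 0.29, and its 95% interval ran from -0.63 to 1.0.

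Of a list of 19 S100 proteins and partners of S100a6, 14 were tested in somatic cells, 3 of the 14 were called higher and 0 lower, where 2.74% and 1.17% of all genes were. The log2 difference was positive for all 14, called or not, and the median was 0.42 beside -0.0066 over all genes tested. S100a10, which forms a tetramer with annexin A2, rose from 397 ± 26.5 to 604 ± 47.9 CPM (log2 0.64 ± 0.089, adjusted p = 0.000516). S100a11 rose from 232 ± 21.4 to 307 ± 23.4 CPM (log2 0.44 ± 0.098, adjusted p = 0.019). Anxa6, a calcium-dependent membrane-binding protein, rose from 537 ± 24.7 to 634 ± 16.5 CPM (log2 0.27 ± 0.073, adjusted p = 0.0499), and Anxa2 just missed the threshold (log2 0.29, adjusted p = 0.0503). The call of Anxa6 held in 2 of 14 alternatives. In germ cells 0 of 11 tested genes of the list were called by edgeR and 0 by DESeq2, with 4 at an unadjusted p under 0.05. The dex effect differed between the populations for S100a10 (germ minus somatic log2 -1.04 ± 0.19, adjusted p = 0.016) and S100a11 (-1.72 ± 0.26, adjusted p = 0.00648). S100a11 was at 2.68 ± 0.191 CPM in saline and 1.09 ± 0.522 CPM in dex germ libraries, far below its somatic level. Some somatic cell markers were lower in the same germ libraries. The 6 Sertoli markers summed to 25.3 to 33.2 CPM in dex and 41.4 to 45.5 CPM in saline germ libraries, with a negative log2 difference for 6 of 6 (median -0.50), of which edgeR and DESeq2 called 0 and 4 had an unadjusted p under 0.05. The Leydig markers summed to 4.83 to 8.79 CPM with dex and 9.07 to 11.8 CPM with saline, and the erythroid markers to 4.49 to 7.74 and 7.85 to 9.62 CPM. The stromal markers overlapped (103 to 105 and 93.1 to 125 CPM) and the macrophage markers were higher with dex (14.9 to 17.4 and 9.45 to 13.3 CPM). Most of the macrophage sum was Mrc1 (11.7 ± 1.45 CPM with dex, 6.27 ± 1.61 CPM with saline, SD, n = 3). The other macrophage markers each had a lower mean with dex. The part of somatic RNA in the germ values of S100a10 and S100a11, and so in their difference between the populations, was not tested.

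Ncam1 (ENSMUSG00000039542, chr9:49502136-49798925, minus strand) was at 88.7, 87.3 and 83.9 CPM in dex somatic libraries and at 43.3, 42.2 and 44.5 CPM in saline somatic libraries, with an SD of 2.86% of the mean in the dex and 2.68% in the saline group. The log2 difference was 1.03 ± 0.096, or 2.04-fold. In germ cells the order was the opposite. Ncam1 stood at 11.1, 10.2 and 8.74 CPM in dex germ libraries and at 13.3, 18.4 and 13.9 CPM in saline germ libraries, so that every dex library was below every saline library, with a log2 difference of -0.61 ± 0.17.

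Among other immunoglobulin adhesion molecules and NCAM partners, somatic cells changed in both directions. Of 24 genes listed, 19 were tested, 2 were called higher and 3 lower, and the median was -0.09. Alcam, an adhesion molecule of activated leukocytes and stromal cells, rose from 45.2 ± 7.34 to 69.6 ± 7.62 CPM (log2 0.66 ± 0.12, adjusted p = 0.00429). Fgfr1, a growth factor receptor that binds NCAM, rose from 230 ± 5.47 to 280 ± 19.4 CPM (log2 0.32 ± 0.079, adjusted p = 0.031), and it also rose in germ cells (log2 0.44 ± 0.077, adjusted p = 0.0123). Cadm1, another immunoglobulin adhesion molecule, fell from 35.8 ± 4.95 to 17.4 ± 2.08 CPM (log2 -1 ± 0.14, adjusted p = 0.000393). Mcam fell from 107 ± 7.65 to 83.9 ± 3.61 CPM (log2 -0.32 ± 0.083, adjusted p = 0.0434). Gdnf, a growth factor made by Sertoli cells that also binds NCAM, fell from 91.6 ± 4.61 to 70.4 ± 5.38 CPM (log2 -0.35 ± 0.092, adjusted p = 0.0495), a call that held in 4 of 14 alternatives. The dex effect on Cadm1 differed between the populations (germ minus somatic log2 1.03 ± 0.17, adjusted p = 0.00757), with a germ level of 106 ± 8.44 CPM in saline and 106 ± 8.05 CPM in dex libraries.

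Rasgrp2 (ENSMUSG00000032946, chr19:6399340-6415216, plus strand) was at 67.1, 78.8 and 72.6 CPM in dex somatic libraries and at 26.7, 30.8 and 32.4 CPM in saline somatic libraries, a log2 difference of 1.32 ± 0.11, or 2.49-fold. Its germ libraries were at 25.5, 36 and 26.1 CPM with dex and at 36, 33.4 and 40 CPM with saline. Dex germ replicate 2 was within the saline range and the other 2 dex germ libraries were below it (log2 -0.33 ± 0.14). None of the other genes of the RAP1 cycle passed with Rasgrp2 in somatic cells. Of 24 genes that encode RASGRP proteins, RAP1 and its other exchange factors, GTPase-activating proteins and effectors, 23 were tested, and edgeR called 0 in somatic and 0 in germ cells. At an unadjusted p under 0.05 there were 6 and 3 genes, and DESeq2 called 0 and 1. Their somatic log2 differences had both signs (13 positive, 10 negative) and a median of 0.03. RASGRP2 is best known from platelets. Of 6 platelet and megakaryocyte markers, 2 were tested in somatic cells, 0 were called by edgeR or DESeq2, 0 had an unadjusted p under 0.05, and the summed level was 3.36 to 5.71 CPM in dex and 3.34 to 4.63 CPM in saline somatic libraries, with 3 and 2 of the 6 genes at 0 in the whole group.

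Hmcn2 (ENSMUSG00000055632, chr2:31314415-31460738, plus strand) had the highest somatic level of the 3 genes that were lower. It stood at 9.11, 10.7 and 14.1 CPM in dex somatic libraries and at 41, 41.7 and 42.9 CPM in saline somatic libraries. The SD of the saline libraries was 2.32% of their mean, and the dex libraries were all far below that mean. The log2 difference was -1.85 ± 0.15, a level 0.277 times that with saline. In germ cells, at 40 to 113 counts per library, Hmcn2 was at 1.88, 2.62 and 3.06 CPM with dex and at 5.04, 4.32 and 2.15 CPM with saline. Those groups overlapped through saline replicate 3 (log2 -0.62 ± 0.33).

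Other matrix genes listed with Hmcn2 were not called lower in somatic cells. Of 11 hemicentins, fibulins, fibrillins and nidogens, 10 had a positive log2 difference, 1 was called higher, 0 were called lower, and the median was 0.24. The paralogue Hmcn1 was at 84.6 ± 17.6 CPM with saline and 99.1 ± 8.1 CPM with dex (log2 0.27, adjusted p = 0.26). Fbln5, an elastic fibre protein, rose from 111 ± 23.5 to 159 ± 23.2 CPM (log2 0.56 ± 0.12, adjusted p = 0.0157), although the libraries of the groups overlapped. In germ cells Fbln1 rose (log2 0.52 ± 0.089, adjusted p = 0.0112), while Efemp2, also known as fibulin 4, fell from 59.6 ± 4.09 to 42.1 ± 1.18 CPM (log2 -0.51 ± 0.095, adjusted p = 0.0176) and Fbn2, fibrillin 2, fell from 135 ± 12.1 to 94.7 ± 8.92 CPM (log2 -0.52 ± 0.093, adjusted p = 0.0137). The difference between the populations was called for Efemp2 (-0.71 ± 0.11, adjusted p = 0.00721) and Fbn2 (-0.73 ± 0.16, adjusted p = 0.0392).

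Afap1l1 (ENSMUSG00000033032, chr18:61730261-61786702, minus strand) and Wscd1 (ENSMUSG00000020811, chr11:71749920-71789647, plus strand) were germ cell transcripts that were low in the somatic fraction. Afap1l1 was at 66.2, 73.9 and 73.4 CPM in dex germ libraries and at 60.9, 52.7 and 53.7 CPM in saline germ libraries, all dex libraries being above all saline libraries (log2 0.34 ± 0.094). In somatic cells it was at 1.87, 1.43 and 1.53 CPM with dex and at 4.28, 4.11 and 4.1 CPM with saline. The somatic log2 difference was -1.34 ± 0.37, on 29 to 95 counts per library, and was the 1 of the 7 that the test did not call. It was called by DESeq2, with library totals in place of TMM, with a filter of at least 10 counts in every library and in a fit of all 12 libraries. The antisense gene 1500015A07Rik overlaps Afap1l1 and holds 38.7% as many counts over the 12 libraries. In somatic libraries it had more counts than Afap1l1, at 8.33 CPM with saline and 5.26 CPM with dex. Whether counting used the strand is not given in the sources used here, and reads of the 2 genes cannot be told apart without it.

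Wscd1 was at 31.1, 32.9 and 37.9 CPM in dex germ libraries and at 30.9, 34.3 and 27.2 CPM in saline germ libraries, which overlapped (log2 0.13 ± 0.12). In somatic cells it was nearly undetected with dex. The 3 dex somatic libraries held 2, 4 and 4 counts (0.11, 0.198 and 0.198 CPM) and the 3 saline somatic libraries held 36, 26 and 27 counts (1.77, 1.13 and 1.29 CPM). Summed over each group these are 10 and 89 counts, a ratio of 0.123 with a 95% exact interval of 0.0572 to 0.238 that covers counting error only. The fitted log2 difference was -2.97 ± 0.75, and its call was lost when any 1 of the 6 libraries was left out, with the replicate number as a block, and in limma on FPKM.

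In the somatic fraction both genes kept a larger share of their germ level than the germ cell markers Ddx4 and Dazl did. The somatic level of Afap1l1 was 7.47% of its germ level with saline and 2.26% with dex, and that of Wscd1 was 4.53% and 0.496%. For Ddx4, an RNA helicase, and Dazl, an RNA-binding protein, the somatic level was 0.221% and 0.116% of the germ level with saline and 0.0908% and 0.0567% with dex. Ddx4 was itself lower with dex in somatic libraries (86 counts in all with saline and 34 with dex, log2 -1.17, adjusted p = 0.42), and its dex effect differed between the populations (germ minus somatic log2 1.28 ± 0.28, adjusted p = 0.0462). Dnd1 and Nanos3, germ cell regulators, were at 5.03% and 3.36% with saline and at 7.25% and 5.16% with dex, and neither was called. Of 293 genes at least 16 times higher in germ than in somatic cells, a class taken after the values of these 2 genes were seen, 63.5% had a negative log2 difference in somatic cells beside 51.1% of all genes, with a median of -0.23. Of those 293 genes 1.37% were called lower, beside 1.17% of all genes. The part of germ cell RNA carried into the somatic fraction in the values of Afap1l1 and Wscd1 was not tested.

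Relatives of these 2 genes did not pass the test. In the list of 7 genes for the AFAP family, SRC and cortactin, all 7 were tested, edgeR and DESeq2 called 0 in somatic and 0 in germ cells, 2 and 1 had an unadjusted p under 0.05, and the somatic median was -0.02. In the list of 16 genes for the WSCD family and the enzymes of sialic acid, 15 were tested in somatic and 16 in germ cells, and edgeR called 0 in either. DESeq2 called 1 in somatic and 2 in germ cells, 4 and 4 had an unadjusted p under 0.05, and the somatic median was -0.05. Over all genes, 2701 of 16766 had an unadjusted p under 0.05 in somatic cells and 2736 of 18550 in germ cells.

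**Figure D2:**
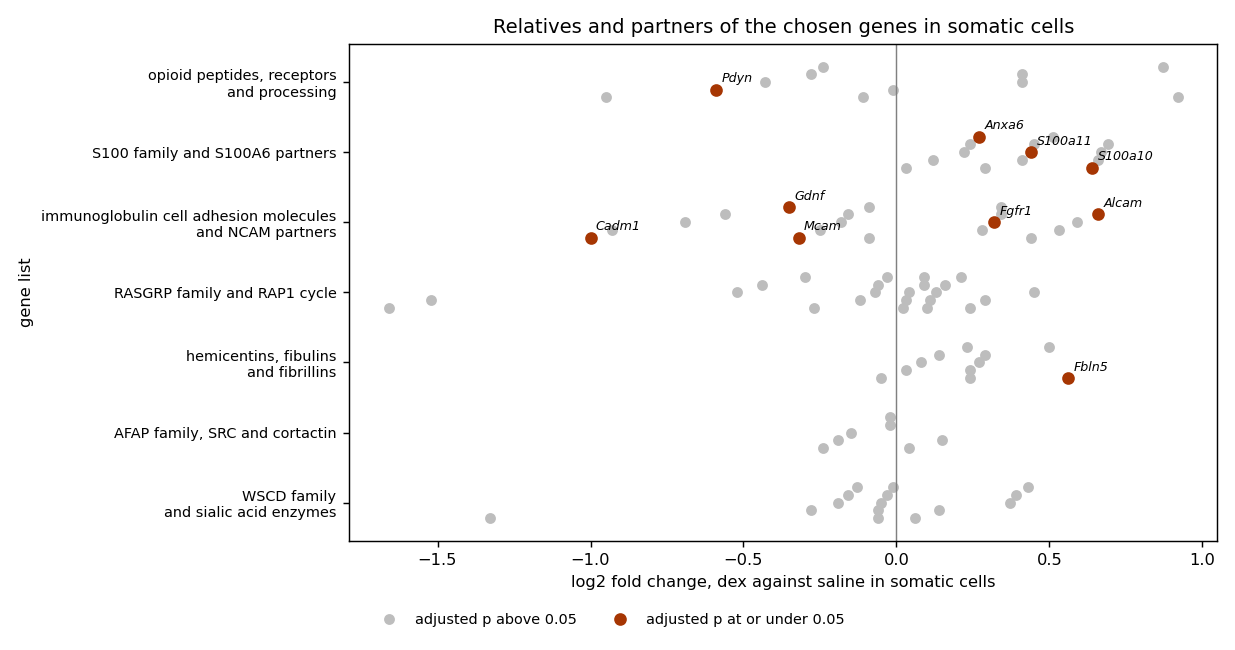
Log2 difference between dex and saline in somatic cells for each tested gene of the 7 lists of relatives and partners, without the chosen genes, as 1 point per gene. Called genes (adjusted p of at most 0.05) are named, and the S100 list is the one with all of its points to the right of 0.

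In germ cells edgeR called 0 of the 7 genes, where 1.25% of the genes tested were called, while DESeq2, and edgeR with no filter on low counts, called 2 (Ncam1 and Afap1l1). The dex and saline germ libraries were apart for 3 of the 7 (Penk, Ncam1 and Afap1l1), where 20.1% of genes were. The germ difference had the opposite sign to the somatic one for 4 genes, Ncam1, Rasgrp2, Afap1l1 and Wscd1. These were also the 4 genes whose difference between the populations was called, which was so for 0.827% of genes tested. The choice of the genes compared the same values, so nothing is read from these calls. Germ minus somatic, it was -1.60 ± 0.18 for Ncam1, -1.61 ± 0.19 for Rasgrp2, 1.71 ± 0.20 for Afap1l1 and 3.12 ± 0.40 for Wscd1. It was -0.90 ± 0.24 for Penk, -0.98 ± 0.35 for S100a6 and 1.27 ± 0.36 for Hmcn2, and these were not called. For those 3 genes the germ value had the same sign as the somatic one, and the data did not separate a response restricted to somatic cells from a smaller one in both populations. For the other 4 genes such a restriction was not tested either, since these values entered the choice. Leaving out 1 library moved several of these values. The difference of S100a6 was -0.57 without saline germ replicate 3 and ran to -1.39 without dex germ replicate 2. The germ value of Hmcn2 was -0.91 without saline germ replicate 3 and -0.37 without saline germ replicate 1, and that of Rasgrp2 was -0.51 without dex germ replicate 2. Ncam1 and Hmcn2, both mainly somatic transcripts, had negative germ values, while Penk and S100a6, also mainly somatic, had positive ones (0.54 and 0.19). In the same germ libraries the Sertoli and Leydig marker sums were lower with dex (25.3 to 33.2 against 41.4 to 45.5 CPM for the Sertoli markers). The stromal sums overlapped. The macrophage sums were higher with dex through Mrc1 (11.7 ± 1.45 against 6.27 ± 1.61 CPM, SD, n = 3), while each other macrophage marker had a lower mean with dex. The part of somatic RNA in the germ values of the chosen genes was not tested.

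**Figure D3:**
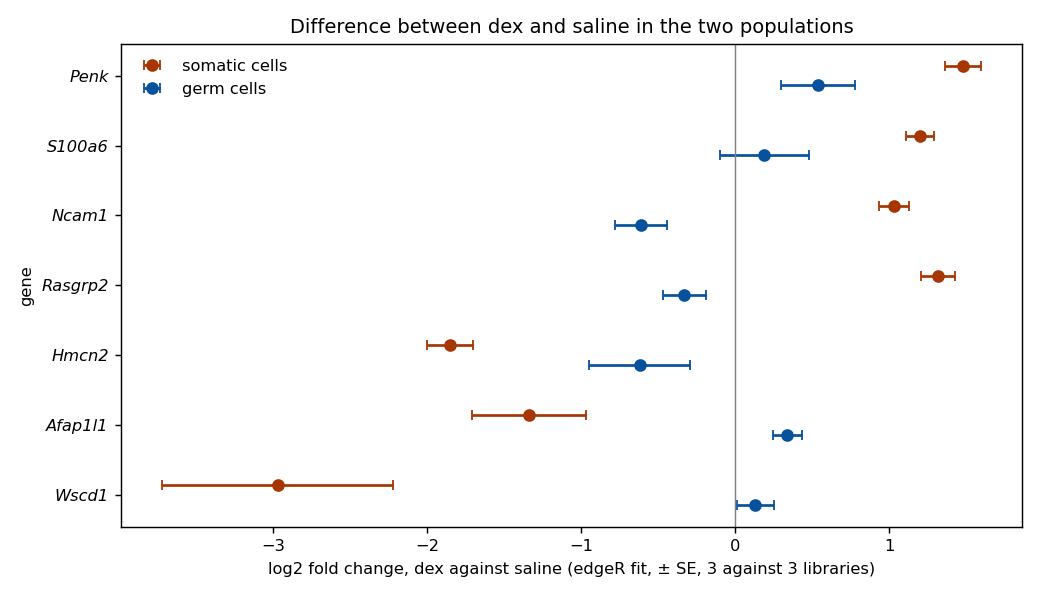
Log2 difference between dex and saline for each gene in somatic and in germ cells, as the edgeR estimate with its SE from 3 against 3 libraries. Germ values lie between -0.62 and 0.54, and those of Ncam1, Rasgrp2, Afap1l1 and Wscd1 lie across 0 from their somatic value.

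Which population held the transcript was not what the genes were chosen on, and it was tested with edgeR over all 12 libraries. The test averages over both treatments, so the libraries that entered the choice are part of it. The saline libraries were also taken alone, but they entered the choice too, so that fit is not free of it. Of the 7 genes, 5 were called higher in somatic cells and 2 in germ cells, where 38% and 43.5% of all genes tested were. In the saline libraries alone 6 of the 7 kept the direction and the call, all but Rasgrp2. Penk was the most somatic, with a germ against somatic log2 difference of -5.06 ± 0.12 (adjusted p = 1.1e-16). S100a6 was at -2.93 ± 0.18 (adjusted p = 5.6e-11), Hmcn2 at -2.87 ± 0.18 (adjusted p = 9.8e-11) and Ncam1 at -2.38 ± 0.094 (adjusted p = 9.9e-14), and in each treatment all germ libraries of these 4 genes were below all somatic libraries. Wscd1 was 62.4 times (log2 5.96 ± 0.17, adjusted p = 9.9e-16) and Afap1l1 23.2 times higher in germ cells (log2 4.54 ± 0.10, adjusted p = 3.4e-17), again with no overlap in either treatment. Both folds hold the somatic difference with dex that these genes were chosen for. With saline the germ level was 2210% of the somatic level for Wscd1 and 1340% for Afap1l1, and with dex it was 20200% and 4420%.

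Rasgrp2 was the exception, because the order of the populations turned with treatment. Averaged over treatments it was lower in germ cells (log2 -0.58 ± 0.096), a value that holds the dex rise it was chosen for, so that its call supports nothing. With saline its germ libraries (33.4 to 40 CPM) were all above its somatic libraries (26.7 to 32.4 CPM). In the saline libraries alone the log2 difference was 0.22 ± 0.12 and was not called (adjusted p = 0.116). With dex its germ libraries (25.5 to 36 CPM) were all below its somatic libraries (67.1 to 78.8 CPM).

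**Figure D4:**
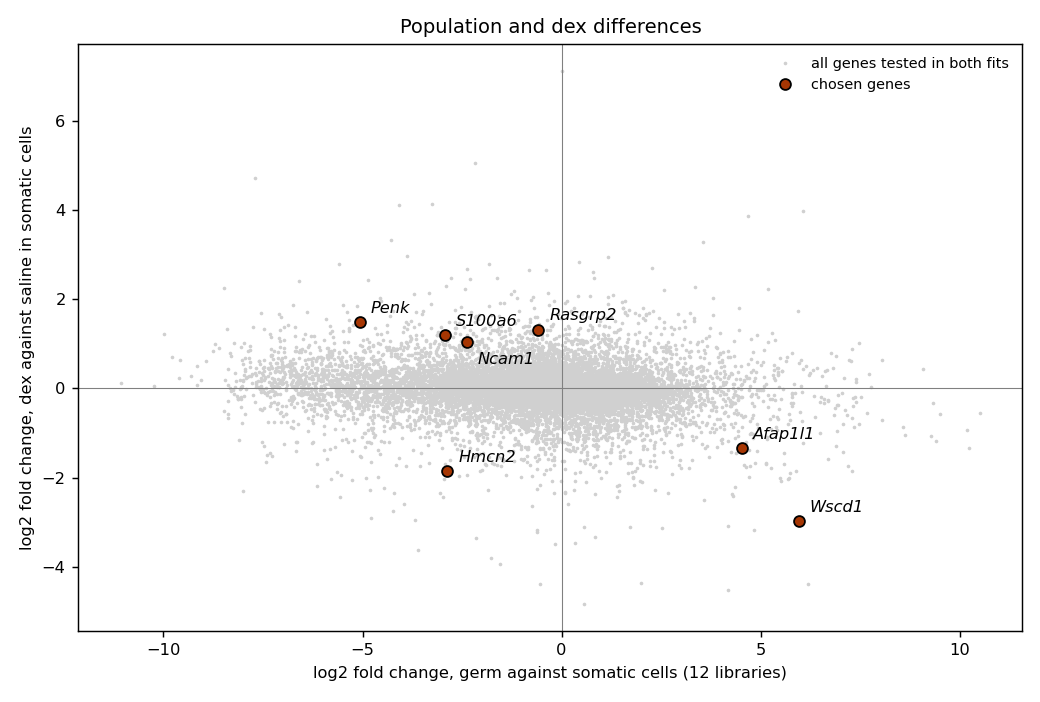
Log2 difference between dex and saline in somatic cells against the log2 difference between germ and somatic cells, for all genes tested in both fits and, as larger points, the 7 chosen genes. Penk, S100a6, Ncam1 and Hmcn2 lie on the somatic side, Rasgrp2 near the middle, and Afap1l1 and Wscd1 on the germ side below 0.

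Per kilobase of transcript, in FPKM, the order of the 7 genes differed between the populations. In saline somatic libraries Penk (46.9 ± 9.56 FPKM, SD, n = 3) and S100a6 (38.5 ± 1.92) came first and overlapped, followed by Ncam1 (4.79 ± 0.27). Hmcn2 (2.49 ± 0.104) and Rasgrp2 (2.31 ± 0.217) overlapped too, and Afap1l1 (1.08 ± 0.0548) and Wscd1 (0.313 ± 0.0834) came last. In dex somatic libraries no neighbours in the order overlapped, Penk was at 132 ± 4.72 and S100a6 at 88.9 ± 5.58 FPKM, and Hmcn2 fell below Rasgrp2 (0.69 ± 0.153 against 5.78 ± 0.514 FPKM). In saline germ libraries Afap1l1 (15.1 ± 1.19 FPKM) came first, S100a6 (7.74 ± 3.46) and Wscd1 (7.15 ± 0.794) overlapped, and Rasgrp2 (2.94 ± 0.283), Penk (2.1 ± 0.0114), Ncam1 (1.75 ± 0.313) and Hmcn2 (0.237 ± 0.0924) followed, of which Penk and Ncam1 overlapped. In dex germ libraries Afap1l1 was again first at 19.5 ± 1.14 FPKM and Hmcn2 last at 0.158 ± 0.0371 FPKM, and Penk (3.1 ± 0.649) overlapped with Rasgrp2 (2.37 ± 0.475).

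The genes on either side of each chosen gene on its chromosome were tested in somatic cells, 14 in all. At Rasgrp2 both neighbours rose. Nrxn2, which encodes the synaptic adhesion protein neurexin 2 and lies 3515 bases from Rasgrp2, rose from 17.1 ± 1.54 to 35.4 ± 3.98 CPM (log2 1.08 ± 0.13, adjusted p = 0.000195). Pygm, the muscle glycogen phosphorylase, lies 881 bases away on the other side and rose from 76.6 ± 16.6 to 117 ± 21.6 CPM (log2 0.66 ± 0.13, adjusted p = 0.0105). The call of Nrxn2 held whichever library was left out, and that of Pygm failed when the second dex library, or either of saline replicates 1 and 3, was dropped. In germ cells neither was called by edgeR (log2 -0.01, adjusted p = 0.981 for Nrxn2 and log2 -0.08, adjusted p = 0.928 for Pygm). The dex effect of Nrxn2 differed between the populations (germ minus somatic log2 -1.06 ± 0.24, adjusted p = 0.0465), a call that held in 5 of 19 alternatives, and that of Pygm did not pass (-0.69 ± 0.33, adjusted p = 0.376). Reads that run from 1 gene of this cluster into the next were not tested.

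Of the other 12 neighbours 1 was called. Sh3tc2, 166373 bases from Afap1l1, fell from 105 ± 9.03 to 78.3 ± 11 CPM (log2 -0.38 ± 0.10, adjusted p = 0.0472). S100a16, the neighbour of S100a6 on the lower coordinate side, was at 10.2 ± 2.11 CPM with saline and 15.8 ± 0.846 CPM with dex (log2 0.67 ± 0.18, adjusted p = 0.0532). The neighbours of Penk, Ncam1, Hmcn2 and Wscd1 had adjusted p-values of 0.397 to 0.996.

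**Figure D5:**
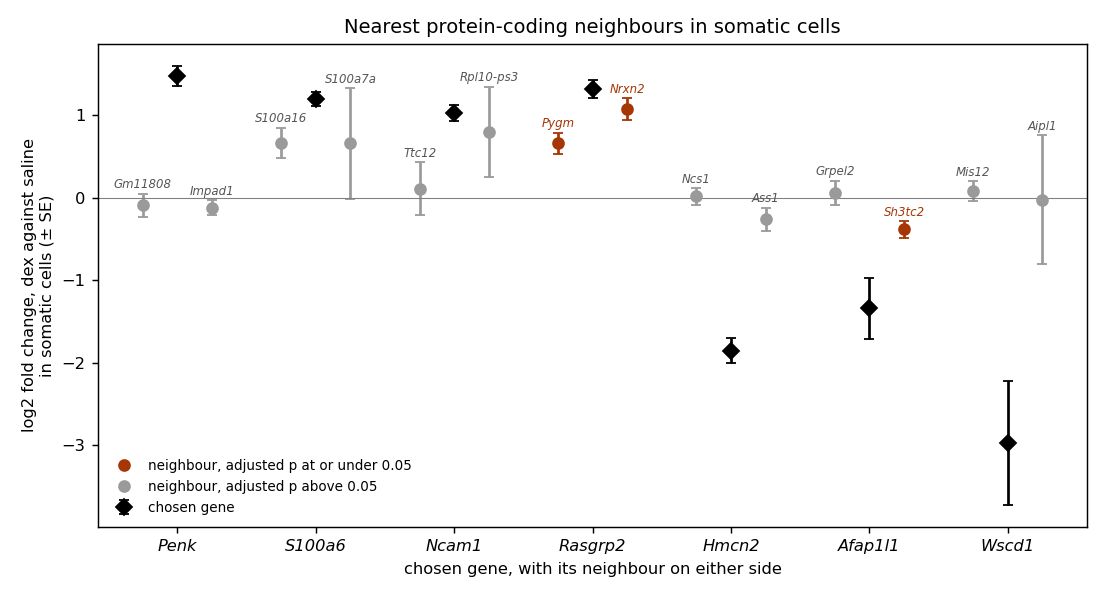
Log2 difference between dex and saline in somatic cells, with its SE, for each chosen gene (diamond) and the nearest tested protein-coding gene on either side (circles). Pygm and Nrxn2 lie above 0 with Rasgrp2, while the neighbours of Penk, Hmcn2 and Wscd1 lie near 0.

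Some other transcripts followed the chosen genes closely over the 12 libraries. Among 11473 protein-coding candidates with an average of at least 2 on the log2 CPM scale, those with the highest Pearson r of log2 CPM were named. Since all 12 libraries share the large difference between populations, r is a description and a high r mostly reports which population holds the gene. For Penk they were Smtn (0.996), Eng (0.995) and Acaa2 (0.994), which encode smoothelin of contractile cells, the TGF-β co-receptor endoglin and a mitochondrial thiolase. For S100a6 they were Lmna (0.992), Dusp1 (0.988) and Tbata (0.987). Lmna encodes the nuclear lamins A and C, and Dusp1 is a phosphatase of MAP kinases and a well-known glucocorticoid target. For Ncam1 they were Atp10a (0.989), Cryab (0.987) and Nucb2 (0.987).

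No gene followed Rasgrp2 as closely, and its best were Cyb5r3 (0.891), Iscu (0.884) and P4ha2 (0.883). For Hmcn2 they were Ezh2 (0.99), the methyltransferase of Polycomb repressive complex, Odc1 (0.98), which makes polyamines, and Col6a6 (0.974), a collagen VI chain. For Afap1l1 they were Jag2 (0.997), a Notch ligand, Lonrf2 (0.997) and Fmnl1 (0.996), a formin. For Wscd1 they were Frem2 (0.994), a basement membrane protein, Afap1l1 itself (0.991) and Gpatch2l (0.99).

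Markers of several somatic cell types moved in the same comparison as the chosen genes. Of 6 peritubular and stromal markers 3 rose in somatic libraries, with Col1a1 at log2 0.82 ± 0.11 (adjusted p = 0.000282), Pdgfra at 0.50 ± 0.11 (adjusted p = 0.0132) and the smooth muscle actin gene Acta2 at 0.44 ± 0.077 (adjusted p = 0.00367). The summed level of the 6 was 7490 to 8630 CPM with dex and 4560 to 6040 CPM with saline, and none of the 6 was at 0. Most of that sum was Col1a1 (5480 ± 600 CPM with dex, 3190 ± 524 CPM with saline, SD, n = 3). All 6 log2 differences were positive, but the groups overlapped for each gene that was not called. Of 6 macrophage markers 3 fell, with Lyz2 at -1.87 ± 0.27 (adjusted p = 0.000574), Csf1r at -1.75 ± 0.28 (adjusted p = 0.002) and Mrc1 at -0.99 ± 0.25 (adjusted p = 0.0333), and their sum was 21.1 to 29.6 CPM with dex and 46.7 to 78.9 CPM with saline. In these bulk samples fewer cells of a type and less RNA per cell cannot be told apart, and the part of cell composition in the values of the 7 genes was not tested.

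Single genes of other marker lists were called too. Of 6 Leydig markers 1 was called lower, Star (log2 -0.69 ± 0.14, adjusted p = 0.0102), and their sums overlapped (84.3 to 171 CPM with dex, 119 to 199 CPM with saline). Of 6 endothelial markers 1 was called lower, Tek (-1.23 ± 0.29, adjusted p = 0.0267), and 5 of the 6 had a negative log2 difference (median -0.6). DESeq2 called 2, and in edgeR 4 had an unadjusted p under 0.05. Their sums were 242 to 314 CPM with dex and 241 to 279 CPM with saline. Most of each sum was Cdh5 (246 ± 42.8 and 215 ± 22 CPM, SD, n = 3), the 1 gene with a positive value. Of 6 erythroid markers Hbb-bs and Hbb-bt were lower (-1.21 ± 0.32 and -1.29 ± 0.34, adjusted p = 0.0471 and 0.0472), with sums of 82.7 to 292 and 248 to 389 CPM. DESeq2 did not call Hbb-bs, and without dex somatic replicate 2 the values were -1.92 and -1.86. Of 2 tested lymphocyte markers Cd79a was lower (-2.35 ± 0.62, adjusted p = 0.0456), with sums of 0.384 to 1.63 and 3.68 to 4.19 CPM over the list of 6, which did not overlap. Cd79a had 22 counts in all in dex and 128 in saline somatic libraries. Its level was higher in germ libraries (5.82 ± 2.9 CPM with dex, 5.8 ± 1.17 CPM with saline, SD, n = 3), so its fall cannot be read as a change of lymphocytes. Of the 6 Sertoli markers, the 4 tested Schwann and neural markers and the 5 tested mesothelial markers, edgeR and DESeq2 called 0 in somatic cells, with 1, 1 and 0 at an unadjusted p under 0.05.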

How the data were processed

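RNA-seq libraries from poly(A) RNA of sorted cells were compared in 4 groups of 3. Per the labels and the study's methods, reads were aligned to mm10 with HISAT2 2.0.5 and counted per gene with featureCounts 1.5.0-p3, and the deposited values are raw counts and FPKM made by the authors, who used DESeq2 1.20.0. The strand setting and annotation release are not given in the sources used here. Gene IDs were checked against GENCODE M21, where 99.8% were found and the 7 genes had identical coordinates.

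Here the counts were tested with edgeR 4.0.16 (R 4.3.3), TMM scaling, filterByExpr with a minimum count of 10, glmQLFTest and Benjamini-Hochberg adjustment over all genes tested, at a threshold of 0.05. Fits used the 6 libraries of 1 population for dex against saline, and all 12 for the difference and for germ against somatic cells. CPM are TMM-scaled over 12 libraries. Replicates are the labels' biological replicates. The main edgeR fit of each comparison was tested on simulated data with known answers, and the alternatives were not. Alternatives were DESeq2 1.42.0, other scalings and filters, limma 3.58.1 on log2(FPKM + 0.1) for genes of at least 0.1 FPKM in 3 libraries, a replicate block, and leaving out each library. At this depth 3 counts are 0.114 to 0.165 CPM. Intervals cover counting error only, since PCR reads without molecular identifiers are not independent molecules. The authors' own comparison tables (fold changes and p-values) were not used.

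The 7 genes and all gene lists were chosen with earlier results of these data known. Named with values are the 7 genes, list genes called in a dex comparison or the difference, the nearest tested protein-coding gene on either side, and the 3 genes most alike in log2 CPM (prior count 2). Of the genes outside this rule, Anxa2, Hmcn1, Amh, Cdh5, Tagln, Dazl, Dnd1, Nanos3 and the gene overlapping Afap1l1 were named after their values were seen.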

Additional observations from a re-analysis of the deposited data

Results flagged for a closer look

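Among the genes of the lists and the neighbours of the 7 genes, the following had a dex effect that differed between germ and somatic cells in the edgeR fit of all 12 libraries. Values are germ minus somatic on the log2 scale, and no explanation is weighed for any of them. The difference was -1.04 for S100a10 (somatic 0.64, germ -0.43, adjusted p = 0.016) and -1.72 for S100a11 (somatic 0.44, germ -1.31, adjusted p = 0.00648), both relatives of S100a6. It was 1.03 for the adhesion gene Cadm1 (somatic -1, germ -0.01, adjusted p = 0.00757). It was -0.71 for Efemp2 (somatic 0.23, germ -0.51, adjusted p = 0.00721) and -0.73 for Fbn2 (somatic 0.24, germ -0.52, adjusted p = 0.0392), both genes of elastic fibres.

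Of the cell type markers, Ddx4 of germ cells differed by 1.28 (somatic -1.17, germ 0.08, adjusted p = 0.0462), on 34 and 86 counts in the dex and saline somatic groups. Col1a1 of stromal cells differed by -0.87 (somatic 0.82, germ -0.10, adjusted p = 0.0282). Pecam1 of endothelium differed by 1.05 (somatic -0.71, germ 0.31, adjusted p = 0.0496) and Mrc1 of macrophages by 1.91 (somatic -0.99, germ 0.89, adjusted p = 0.0149). Neither was mainly somatic here. Mean levels of Pecam1 were 24.5 CPM in saline germ, 30.6 in dex germ, 15.5 in saline somatic and 9.29 in dex somatic libraries. Those of Mrc1 were 6.27, 11.7, 11.2 and 5.53 CPM in the same order. Of the neighbours, Nrxn2 beside Rasgrp2 differed by -1.06 (somatic 1.08, germ -0.01, adjusted p = 0.0465), a call that held in 5 of 19 alternatives.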

How the results depend on the processing

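The somatic log2 differences of Penk, S100a6, Ncam1, Rasgrp2 and Hmcn2 kept their direction and call in all 14 alternatives, with ranges of 1.33 to 1.59, 1.15 to 1.26, 0.97 to 1.07, 1.26 to 1.39 and -2.04 to -1.72. Afap1l1 kept its direction (-1.45 to -1.16) and was called in 4 of 14. Wscd1 kept its direction (-3.13 to -1.56) and its call in 5 of 13, and has no value where at least 10 counts were asked of every library. The difference was called in every alternative for Ncam1, Rasgrp2, Afap1l1 and Wscd1, and in 4, 2 and 2 of 19 for Penk, S100a6 and Hmcn2. The germ value of S100a6 ran from -0.22 to 0.61 and changed sign without dex germ replicate 2 alone. The 1 population difference to reverse was that of Rasgrp2, 0.22 in the saline libraries alone.

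Counts of called genes moved more. In somatic cells 655 became 1061 with no filter, 196 with limma and 354 to 547 with 1 library left out (398 without dex replicate 2, 383 without saline replicate 1, 354 without saline replicate 3). The split of 459 higher and 196 lower became 379 and 329 with library totals and 283 and 258 in the fit of 12 libraries. In germ cells 231 became 675 with DESeq2, 767 with no filter, 142 in the fit of 12 libraries, 0 with limma (2770 at an unadjusted p under 0.05) and 49 to 265 with 1 library left out (115 and 102 without dex replicates 1 and 3, 49 and 75 without saline replicates 1 and 2). For the difference 170 became 620 with DESeq2, 706 with no filter, 262 with at least 10 counts in every library, 68 with limma and 79 to 172 with 1 library left out, where leaving out 8 of the 12 libraries moved it past 1.5 times. For germ against somatic cells 16763 became 11168 with at least 10 counts in every library, and 16766 to 17163 with 1 library left out. Library totals moved the median of that comparison from 0.14 to 0.291, and the 7 genes kept their direction under it. The causes of these changes were not tested beyond the number of genes and libraries entered.

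With the replicate number as a replicate block the calls were 669 in somatic cells, 65 in germ cells and 90 for the difference, and 16218 for germ against somatic cells. By the correlation of their deviations the numbers did not pair dex with saline libraries or the dex germ with the dex somatic libraries, and between the saline germ and saline somatic libraries there was a hint of pairing, from the data and not from the labels. Deviations of same-numbered libraries correlated at -0.206 to 0.12 between dex and saline germ, -0.00537 to 0.0222 between dex and saline somatic, -0.0279 to 0.00614 between dex germ and dex somatic, and 0.0846 to 0.149 between saline germ and saline somatic, where each of the 3 correlated best with its own number.

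List genes and neighbours were put through the same alternatives after their values were seen. All kept their direction. In limma on FPKM, Lyz2 and Cd79a alone kept their somatic call. Over all alternatives S100a10, Cadm1, Alcam, Nrxn2, Col1a1 and Csf1r kept the call in 13 of 14, Pygm, Star, Tek and Mrc1 in 9, S100a11 and Pdgfra in 10, Acta2 in 12, Fbln5 and Pdyn in 8, Fgfr1 and Sh3tc2 in 7, Hbb-bt in 7, Hbb-bs and Mcam in 6, Gdnf in 4 and Anxa6 in 2. In germ cells Fbln1 kept it in 10, Fgfr1, Efemp2 and Fbn2 in 9 and Scg5 in 5. The difference was called in 19 of 19 for Efemp2, 18 for S100a11 and Cadm1, 16 for Mrc1, 15 for S100a10, 14 for Col1a1, 12 for Fbn2, and 6 for Pecam1 and Ddx4 (of 18 for Ddx4). Cd79a kept its somatic call in 6 of 13.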
